A study of Mus musculus with 14 samples.

Results

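The neuropeptide genes examined here were the 10 genes Sst, Cort, Npy, Vip, Cck, Crh, Penk, Tac1, Tac2 and Pmch, taken by symbol from the 43346 genes of the deposited table, where each of them matched 1 row. Their expression was followed in brain tissue of 14 female mice aged 23 months on the strain background C57BL/6;SJL-Tg, cut as a cross-section that held hippocampal and cortical tissue. The groups were 4 wild type littermates (non-transgenic, NTG, mice 7 to 10), 5 APP/PS1 +/+ mice (mice 16 to 20) and 5 APP/PS1 +/+ mice given CP2 (mice 21 to 25). APP/PS1 mice carry familial Alzheimer's disease mutations in transgenes of APP and PS1, whose promoters are not given in the sources used here. CP2, a small molecule that inhibits mitochondrial complex I in part, was taken at 25 mg/kg/day in drinking water with 0.1% PEG from the age of 9 months. The APP/PS1 mice without CP2 are labelled as not treated, and the study describes them as given vehicle, as it does NTG mice. NTG mice given CP2 are not analysed here.

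Neuropeptides are made as precursor proteins, cut by proprotein convertases in dense-core vesicles and released to act on G protein-coupled receptors. In the cortex and hippocampus Sst, Cort, Npy, Vip and Crh are known as products of classes of GABAergic interneurons, and Cck of interneurons and pyramidal cells. Penk and Tac1 are abundant in the projection neurons of the striatum, and Pmch is made by neurons of the lateral hypothalamus. In bulk tissue, fewer cells of a type and less RNA per cell cannot be told apart.

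Cort and Sst are paralogs whose peptides act on the same receptors, and Tac1 and Tac2 are paralogs of the tachykinin family. To show how far transcripts of such pairs resemble each other where their peptides do, the coding stretch around the longest run of identical amino acids is printed for each (GENCODE M21 transcripts, GRCm38, 5′ to 3′ on the coding strand). Capitals mark the codons of the shared run.
Sst, chr16:23889729-23889782, minus strand, exon 2 of 2: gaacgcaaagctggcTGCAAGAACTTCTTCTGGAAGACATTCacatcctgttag
Cort, chr4:149125264-149125320, minus strand, exon 2 of 2: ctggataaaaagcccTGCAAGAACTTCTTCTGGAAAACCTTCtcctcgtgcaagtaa
Tac1, chr6:7559101-7562384, plus strand, exons 6 and 7 of 7: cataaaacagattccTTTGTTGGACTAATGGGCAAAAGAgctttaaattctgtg
Tac2, chr10:127729116-127729477, plus strand, exons 5 and 6 of 7: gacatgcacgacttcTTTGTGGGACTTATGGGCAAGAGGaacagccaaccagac
The runs of Sst and Cort cover 9 codons and match at 25 of 27 bases. Those of Tac1 and Tac2 cover 8 codons and match at 20 of 24 bases. Both runs are shorter than a sequenced read.

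The sequence upstream of Cort is shown because Cort was the gene that differed by the test below (RefSeq start, GRCm38.p6, 5′ to 3′ on the gene's strand). Capitals mark TGACG, the core of the cAMP response element, or its reverse complement, searched on both strands.
Cort, chr4:149126764-149127013, minus strand: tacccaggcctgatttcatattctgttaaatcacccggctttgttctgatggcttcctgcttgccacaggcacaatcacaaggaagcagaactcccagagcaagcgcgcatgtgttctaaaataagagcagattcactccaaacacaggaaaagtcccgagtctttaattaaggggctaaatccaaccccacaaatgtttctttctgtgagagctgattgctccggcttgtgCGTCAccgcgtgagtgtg
Sst, the 30 bases at chr16:23890874-23890903, minus strand, with the full element in capitals: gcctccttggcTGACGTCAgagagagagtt
The full element TGACGTCA lies 48 to 41 bases before the start of Sst, and the core lies 18 to 14 bases before the start of Cort. The full element contains the core on each strand. RefSeq windows of 250 bases were at hand for 8 of the 10 genes, not for Penk and Crh. The core was present in 5 of these 8 (Sst, Cort, Vip, Cck and Tac1) and in 17.9% of 27025 promoters, and the full element in Sst alone and in 1.62% of all promoters. These matches are descriptions of the letters in the window.

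Levels of different genes were compared per length, with the RPKM values computed by the authors. By the median over 14 mice Cck (169 RPKM) and Sst (136 RPKM) were the most abundant, followed by Npy (32.1), Penk (20.1), Vip (14.6), Tac2 (5.65), Tac1 (3.70), Cort (1.85), Crh (1.46) and Pmch (0.726 RPKM). Cck was above Sst in 13 of 14 mice, and Sst was above Npy in all 14. The order was least clear among the low genes: Cort exceeded Crh in 10 of 14 mice, which were 4 of 4 NTG, 2 of 5 APP/PS1 and 4 of 5 CP2-treated mice, and Crh exceeded Pmch in 10 of 14. By group means Cort was above Crh in NTG mice (2.92 against 1.49 RPKM) and below it in APP/PS1 mice (1.49 against 1.82 RPKM). APP/PS1 mouse 16 had the lowest Cort (1.04 RPKM) and the highest Crh (3.11 RPKM) of all 14 mice and entered the APP/PS1 means. APP/PS1 mice 17 to 20 had 1.78, 1.68, 1.24 and 1.74 RPKM of Cort, and 1.94, 1.35, 1.38 and 1.33 RPKM of Crh.

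**Figure D1:**
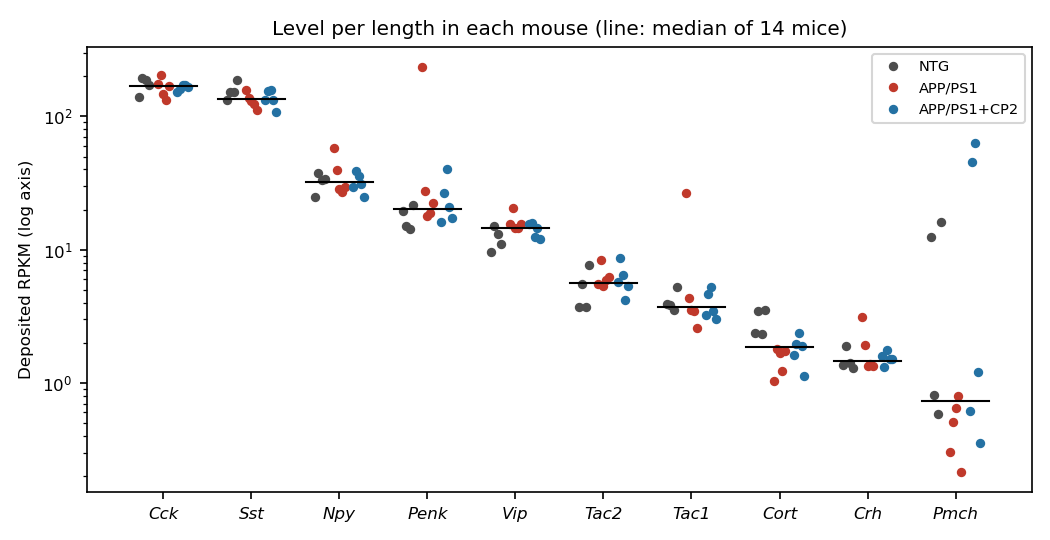
Deposited RPKM of each gene (log axis) in every mouse, coloured by group, with a line at the median of 14 mice. The medians run from 169 RPKM for Cck to 0.726 RPKM for Pmch, and Penk, Tac1 and Pmch have single mice far above the rest.

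Groups were compared with the deposited read counts. Total counts per mouse ranged from 70548781 to 106235625, and the 10 genes had from 18 counts (Pmch) to 40143 counts (Penk) in a mouse. Values below are CPM, read counts scaled to the depth of each mouse with edgeR's TMM factors, and each test is edgeR's two-sided quasi-likelihood test with Benjamini-Hochberg adjustment over all genes tested. The test took genes above 1 CPM throughout at least 1 of the compared groups. Pmch never met this filter. Cort met it through the NTG mice alone, so the filter favoured a difference in Cort, and its values without the filter are given beside it. The other 8 genes met it in each group. A list of 12 microglial marker genes was chosen with earlier results of these data known. All 12 rose in APP/PS1 against NTG mice at an adjusted p under 0.05, against 4.34% of all genes. Their summed level was 911 to 1368 CPM in APP/PS1 mice, against 441 to 468 CPM in NTG mice. Their part in the differences below was not tested. The mouse gene App (1436 ± 50.8 CPM, SD, n = 5, against 1411 ± 63.8 CPM, n = 4) does not check the transgene.

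The question of the first comparison was which of these genes differ between APP/PS1 and NTG mice. Cort, which encodes cortistatin, a somatostatin-like peptide, fell by 51.0% and was the only gene past the adjusted threshold among the 9 that were tested. Of the 9 genes tested, 1 reached an adjusted p under 0.05, against 5.68% of all genes tested (1.34% lower and 4.34% higher). An unadjusted p under 0.05 was reached by 3 of 9 (Sst and Cort lower, Vip higher), against 18.7% of all genes (8.05% lower and 10.6% higher). The NTG and APP/PS1 ranges were apart for Cort alone, with the APP/PS1 mice lower, against 10% of all genes (4.11% with the APP/PS1 mice lower). The median log2 fold change of the 9 was 0.22 with 6 higher and 3 lower, and that of all genes was -0.0042. Without APP/PS1 mouse 16 the median of the 9 was -0.13, with 3 higher and 6 lower.

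**Figure D2:**
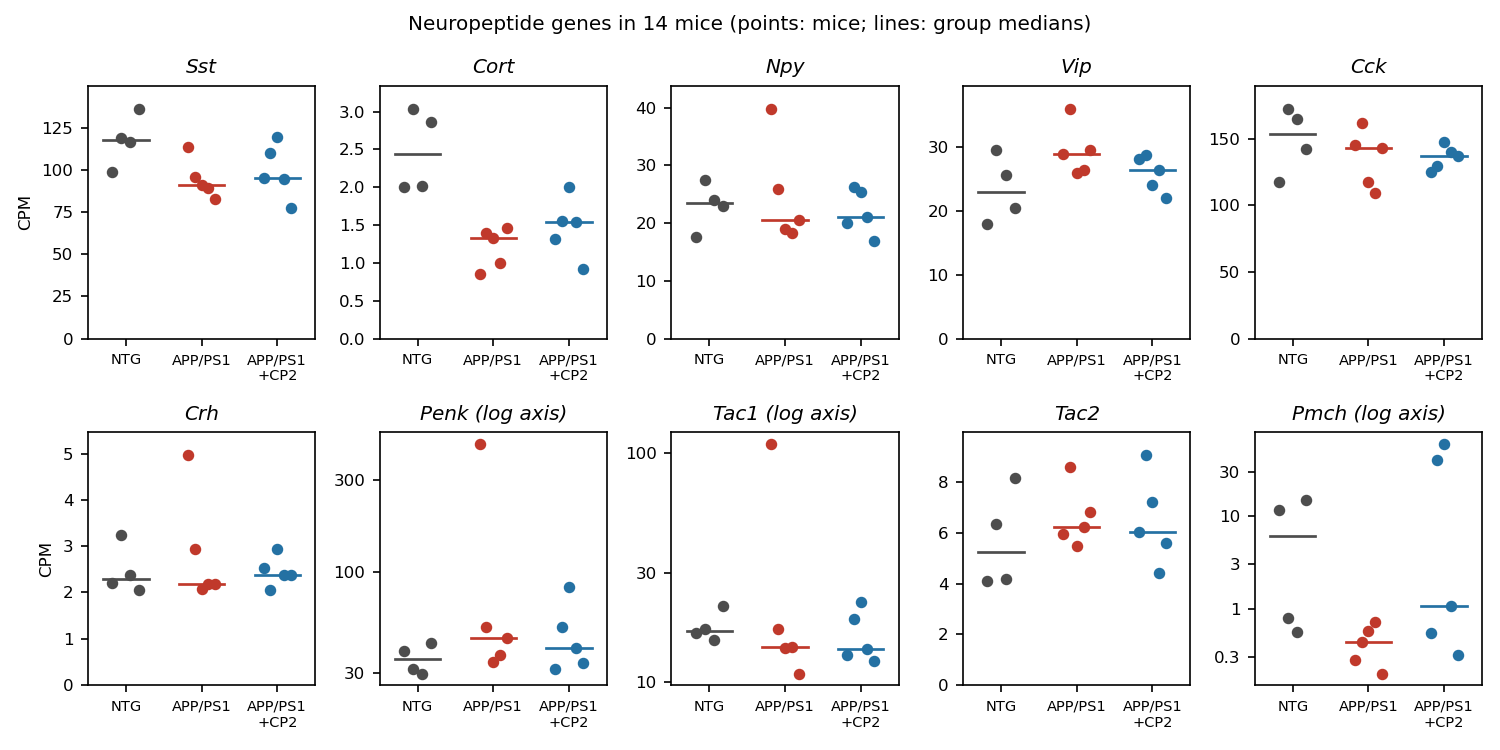
CPM of each gene in every mouse (points) with group medians (lines); Penk, Tac1 and Pmch have log axes and the others start at 0. Cort lies between 2.0 and 3.03 CPM in NTG and between 0.85 and 1.46 CPM in APP/PS1 mice, and 1 APP/PS1 mouse stands far above the rest for Penk and Tac1.

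Cort measured 1.999, 3.03, 2.02 and 2.87 CPM in NTG mice 7 to 10. In APP/PS1 mice 16 to 20 it measured 0.85, 1.40, 1.33, 1.002 and 1.46 CPM. Every APP/PS1 mouse was below every NTG mouse, and mouse 16 was the lowest. The means were 2.48 ± 0.547 CPM (SD, n = 4) and 1.21 ± 0.266 CPM (SD, n = 5), on 74 to 268 counts per mouse. The log2 fold change was -1.03 (SE 0.20, adjusted p = 0.0143 with edgeR). Without the filter it was -1.04 (adjusted p = 0.0155), and with a minimum of 10 counts in every mouse -1.03 (adjusted p = 0.0157). Leaving out each mouse in turn kept the log2 fold change between -1.12 and -0.92, and the call was lost without NTG mouse 10 (adjusted p = 0.0522).

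Sst encodes somatostatin, the inhibitory peptide of a large class of dendrite-targeting interneurons. Its values were 98.8, 118.7, 116.3 and 136.1 CPM in NTG mice 7 to 10. In APP/PS1 mice 16 to 20 they were 113.7, 95.6, 91.0, 89.0 and 82.9 CPM. Mouse 16 overlapped the NTG range, whereas the other 4 APP/PS1 mice were below the lowest NTG mouse. The means were 117 ± 15.3 CPM (SD, n = 4) and 94.4 ± 11.7 CPM (SD, n = 5), and the difference did not pass the adjusted threshold (log2 fold change -0.31, SE 0.10, adjusted p = 0.134 with edgeR). It passed without mouse 16 (-0.38, adjusted p = 0.0227) and with limma-voom sample weights (-0.38, adjusted p = 0.0162), and with DESeq2 the adjusted p was 0.0630. Without NTG mouse 10 the log2 fold change was -0.22, the weakest with 1 mouse left out (adjusted p = 0.360 with edgeR).

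Relative to Sst, Cort measured 2.11 ± 0.338 CPM per 100 CPM of Sst in NTG mice (SD, n = 4) and 1.31 ± 0.386 in APP/PS1 mice (SD, n = 5). The ranges, 1.74 to 2.56 and 0.749 to 1.76, met at their edges. As a share of the summed GABAergic genes Gad1, Gad2 and Slc32a1, which synthesize and load GABA, Cort was 0.332 ± 0.0717% in NTG mice (SD, n = 4) and 0.176 ± 0.0658% in APP/PS1 mice (SD, n = 5). Sst was 15.7 ± 1.85% and 13.05 ± 1.98% of the same sum. In mouse 16 this sum was 1160 CPM, against 613 to 692 CPM in the other APP/PS1 mice. The lowest APP/PS1 shares, 0.0735% for Cort and 9.81% for Sst, were those of mouse 16. Median shares in NTG and APP/PS1 mice were 0.325% and 0.192% for Cort, and 15.7% and 13.5% for Sst. These ratios were computed after the levels were known and are given as descriptions.

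Vip marks interneurons that mainly inhibit other interneurons. It measured 18.01, 29.5, 25.6 and 20.4 CPM in NTG mice 7 to 10. In APP/PS1 mice 16 to 20 it measured 29.0, 36.0, 26.0, 26.4 and 29.6 CPM. The low NTG values were those of mice 7 and 10, and mice 8 and 9 lay within the APP/PS1 range or close to it. The log2 fold change was 0.34 (SE 0.15, adjusted p = 0.253 with edgeR), and without NTG mice 7 and 10 it was 0.11 (adjusted p = 0.804).

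The remaining interneuron peptides overlapped between NTG and APP/PS1 mice. Npy, a peptide of several interneuron classes, ranged from 17.5 to 27.4 CPM in NTG and from 18.2 to 39.8 CPM in APP/PS1 mice (log2 fold change 0.11, SE 0.23, adjusted p = 0.851). Cck, the precursor of cholecystokinin, ranged from 118 to 172 CPM and from 109 to 162 CPM (-0.13, SE 0.13, adjusted p = 0.668). Crh, which encodes the stress peptide corticotropin-releasing hormone, ranged from 2.05 to 3.24 CPM and from 2.08 to 4.96 CPM (0.22, SE 0.27, adjusted p = 0.733). Tac2, the precursor of neurokinin B, ranged from 4.09 to 8.17 CPM and from 5.49 to 8.60 CPM (0.22, SE 0.22, adjusted p = 0.656). The highest Npy and Crh values of all 14 mice were those of mouse 16, and without it the log2 fold changes of Npy and Crh were -0.13 and -0.065.

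Penk and Tac1 were set by mouse 16. Penk, the precursor of the enkephalins, measured 462 CPM in mouse 16 and between 29.8 and 83.3 CPM in the other 13 mice. Tac1, the precursor of substance P, measured 109 CPM in mouse 16 and between 10.9 and 22.2 CPM in the other 13. The same mouse had a summed level of 3311 CPM over 13 striatal marker genes, against 434 to 646 CPM in the others, and was the highest of 14 mice for all 13. Adora2a, the adenosine receptor of striatal neurons, was at 115 CPM in mouse 16 and at most 11.2 CPM elsewhere. Mouse 16 was also the lowest for summed dentate gyrus genes (53.2 CPM against 110 to 183) and thalamus genes (111 CPM against 248.7 to 517), and the highest for pan-GABAergic genes (1713 CPM against 1072 to 1342). The dentate gyrus sum also differed by group. It was 147 to 183 CPM in NTG mice, 110 to 133 CPM in the other APP/PS1 mice and 127 to 145 CPM in CP2-treated APP/PS1 mice. Every APP/PS1 mouse, with or without CP2, was thus below the NTG range. The part of this in the differences of Cort and Sst was not tested.

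Set against NTG mice, APP/PS1 mice had a log2 fold change of 1.81 for Penk (SE 0.81, adjusted p = 0.267 with edgeR) and of 0.92 for Tac1 (SE 0.67, adjusted p = 0.528). Without mouse 16 it was 0.24 for Penk (adjusted p = 0.403) and -0.31 for Tac1 (adjusted p = 0.235). Among the remaining APP/PS1 mice Penk averaged 42.1 ± 8.03 CPM and Tac1 14.02 ± 2.51 CPM (SD, n = 4), against 35.9 ± 6.23 and 17.5 ± 2.69 CPM in NTG mice (SD, n = 4). A830012C17Rik, a gene on the opposite strand that shares 499 bases with Penk, had 72.9 CPM in mouse 16 and 3.996 to 13.5 CPM in the others. The authors counted a read on every gene it overlapped, so part of its counts can be Penk reads.

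**Figure D3:**
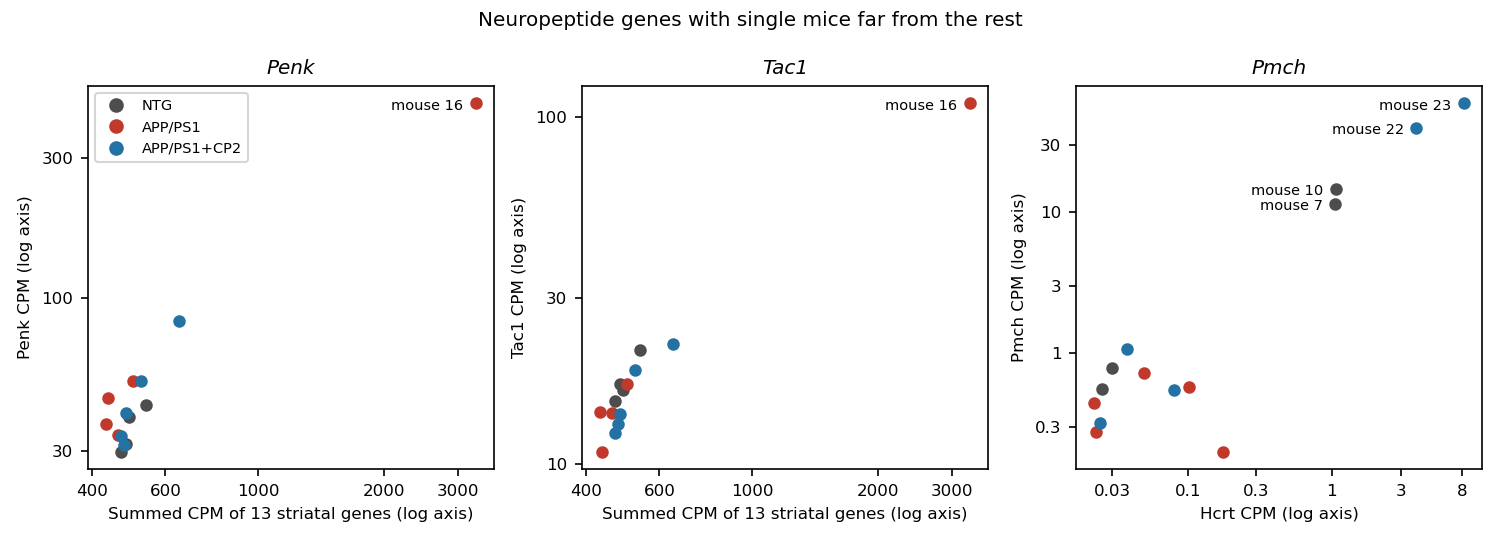
Penk and Tac1 against the summed CPM of 13 striatal genes, and Pmch against Hcrt, 1 point per mouse on log axes. Mouse 16 lies apart with 462 CPM of Penk and 3311 CPM of striatal genes, and mice 7, 10, 22 and 23 lie apart with 11.5 to 59.5 CPM of Pmch.

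Pmch, the precursor of melanin-concentrating hormone, was high in 4 mice of the NTG and CP2-treated groups. It measured 11.5 CPM in NTG mouse 7, 14.6 CPM in NTG mouse 10, 40.1 CPM in CP2-treated mouse 22 and 59.5 CPM in CP2-treated mouse 23. In the other 10 mice it lay between 0.20 and 1.07 CPM. Hcrt, the precursor of orexin from neurons of the same hypothalamic area, was at 1.06, 1.07, 3.86 and 8.22 CPM in the same 4 mice and between 0.023 and 0.18 CPM in the others. Mouse 23 alone also had high Avp (15.8 CPM, at most 1.23 elsewhere) and Oxt (6.51 CPM, at most 1.15 elsewhere), precursors made in the magnocellular hypothalamus. None of the 4 mice was in the APP/PS1 group without CP2, whose Pmch values were 0.20 to 0.72 CPM. Fitted without the filter, Pmch was at -3.97 (log2) in APP/PS1 against NTG mice (SE 0.85, adjusted p = 0.0251 with edgeR), although NTG mice 8 and 9, with 0.79 and 0.56 CPM, overlapped the APP/PS1 range. The part of dissection in this difference was not tested. Parpbp, on the opposite strand, shares 944 bases with Pmch and was at 8.54 to 42.3 CPM in the same 4 mice and at 0.68 to 1.33 CPM in the others.

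Results were repeated without these 4 mice of highest Hcrt. For APP/PS1 against NTG mice Cort then had a log2 fold change of -1.04 with an adjusted p of 0.0918 (n = 5 and 2, edgeR), and with mouse 16 left out as well -0.95 (adjusted p = 0.0449, n = 4 and 2). Sst had -0.29 (adjusted p = 0.309) and, with mouse 16 left out as well, -0.38 (adjusted p = 0.0131).

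The second comparison asked whether CP2 changes these genes in APP/PS1 mice, and no difference passed the test. Of the 8 genes tested, 0 reached an adjusted p under 0.05 with edgeR, DESeq2 (which gave no adjusted p for Penk and Tac1) or limma-voom, against 0.00609% of all genes (1 gene) with edgeR. An unadjusted p under 0.05 was reached by 0 of 8, against 6.55% of all genes, and the ranges of the groups were apart for 0 of 8, against 1.14%. This comparison uses the same APP/PS1 mice as the first.

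Cort measured 1.31, 1.56, 2.01, 1.55 and 0.92 CPM in CP2-treated mice 21 to 25. These values overlapped those of the APP/PS1 mice without CP2, and mouse 23 reached the NTG range. Fitted without the filter, the log2 fold change with CP2 was 0.28 (SE 0.22, adjusted p = 0.781, approximate 95% interval -0.14 to 0.70). Sst measured 95.2, 110.2, 119.7, 94.6 and 77.1 CPM with CP2 (log2 fold change 0.072, SE 0.11, adjusted p = 0.898, interval -0.15 to 0.30). Its highest values were those of mice 22 and 23, and without these 2 the log2 fold change was -0.079.

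Vip measured 28.2, 28.8, 24.1, 26.5 and 22.1 CPM in mice 21 to 25, within or below the range of APP/PS1 mice without CP2 (log2 fold change -0.18, SE 0.10, adjusted p = 0.749, interval -0.38 to 0.016). The intervals of the other genes were wider or similar, from -0.19 to 0.20 for Cck and from -0.59 to 0.24 for Npy. For Penk and Tac1 the log2 fold changes were -1.39 (SE 0.74, adjusted p = 0.749) and -1.05 (SE 0.61, adjusted p = 0.757), and without mouse 16 they were 0.19 and 0.20. Pmch gave 5.52 without the filter (SE 1.34, adjusted p = 0.778), carried by mice 22 and 23.

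**Figure D4:**
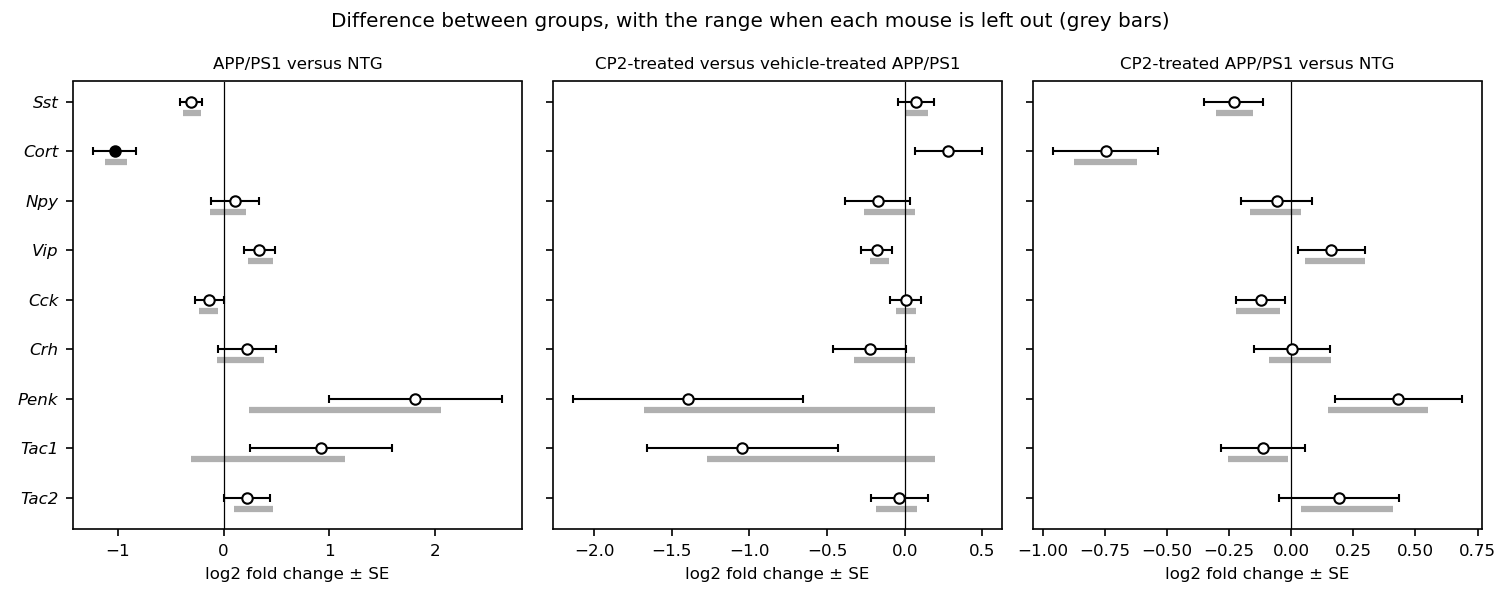
Log2 fold change ± SE of 9 genes in each comparison, with separate scales; the filled point has an adjusted p under 0.05, and grey bars give the range when each mouse is left out (Cort in the middle panel comes from the fit without the filter and has no bar). Cort is at -1.03 in APP/PS1 and at -0.75 in CP2-treated APP/PS1 mice against NTG, and the bars of Penk and Tac1 are the longest in the first and middle panels.

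The third comparison set APP/PS1 mice given CP2 against NTG mice, which are shared with the first. Of the 9 genes tested, 0 reached an adjusted p under 0.05 with edgeR, against 6.02% of all genes. An unadjusted p under 0.05 was reached by 1 of 9 (Cort, lower), against 20.2% of all genes and 8.59% lower, and the ranges were apart for 0 of 9, against 9.61%. Cort averaged 1.47 ± 0.398 CPM (SD, n = 5) with CP2, a log2 fold change of -0.75 (SE 0.21, adjusted p = 0.0662). Without the filter it was -0.75 (adjusted p = 0.0783). It was called in 3 of 17 alternatives, DESeq2 (adjusted p = 0.0167), limma-voom (adjusted p = 0.0358) and without CP2-treated mouse 23 (-0.88, adjusted p = 0.0331 with edgeR). In the other 14 the adjusted p lay between 0.0541 and 0.182, the highest without NTG mouse 8. Cort per 100 CPM of Sst was 1.46 ± 0.200 (SD, n = 5), with a range of 1.19 to 1.68 that lay below the NTG range.

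The other genes gave log2 fold changes from -0.23 for Sst (SE 0.12, adjusted p = 0.305) to 0.43 for Penk (SE 0.25, adjusted p = 0.382). Penk reached its highest value outside mouse 16 in CP2-treated mouse 23, at 83.3 CPM, where the summed striatal genes were also second to mouse 16 at 646 CPM. Without the 4 mice of highest Hcrt, Cck was at -0.32 (adjusted p = 0.0473 with edgeR), against -0.12 with all mice (adjusted p = 0.534). That fit held only NTG mice 8 and 9, at 172 and 165 CPM, and CP2-treated mice 21, 24 and 25, at 125, 140 and 137 CPM. The NTG mice left out, 7 and 10, were at 118 and 142 CPM.

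Related gene lists were then counted. Of 42 other neuropeptide precursors 15 were expressed highly enough to be tested. Apln, the precursor of apelin, fell from 28.8 ± 2.48 CPM (SD, 4 NTG mice) to 14.1 ± 2.42 CPM (SD, 5 APP/PS1 mice), with a log2 fold change of -1.02 (SE 0.12, adjusted p = 0.00110 with edgeR), and it was 16.95 ± 1.61 CPM with CP2 (-0.76 against NTG, SE 0.076, adjusted p = 0.000365). Grp, the precursor of gastrin-releasing peptide, fell between NTG and CP2-treated APP/PS1 mice, from 13.1 ± 0.916 to 9.80 ± 0.380 CPM (-0.41, SE 0.067, adjusted p = 0.00434). In all, 1 of 15 fell and 0 rose between APP/PS1 and NTG mice, against 1.34% and 4.34% of all genes (median log2 fold change -0.21, against -0.0042 for all genes), 0 changed with CP2, and 2 fell from NTG to CP2-treated APP/PS1 mice, where 6.02% of all genes were called in either direction (median -0.11, against -0.0015).

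Of 23 receptors for these peptides 18 were tested, and 0 passed the adjusted threshold in any of the 3 comparisons with edgeR. An unadjusted p under 0.05 was reached by 2, 2 and 3 of the 18 in the 3 comparisons in turn, against 18.7%, 6.55% and 20.2% of all genes. The smallest p between APP/PS1 and NTG mice was that of Crhr1, the main receptor of Crh, at 15.1 ± 1.53 CPM against 18.7 ± 1.37 CPM (-0.30, SE 0.089, adjusted p = 0.0883). Oprm1, the mu opioid receptor, had the smallest p with CP2 (0.27, SE 0.096, adjusted p = 0.744). Sstr2, a somatostatin receptor, had the smallest p from NTG to CP2-treated APP/PS1 mice (0.30, SE 0.096, adjusted p = 0.0995).

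Among 23 genes of peptide processing and dense-core vesicles, 1 rose and 0 fell between APP/PS1 and NTG mice, against 4.34% and 1.34% of all genes. From NTG to CP2-treated APP/PS1 mice 2 rose and 0 fell, where 6.02% of all genes were called in either direction. Ctsl, a lysosomal cysteine protease that also cuts prohormones and is abundant in other cell types, rose from 74.0 ± 4.16 CPM (SD, 4 NTG mice) to 117 ± 16.02 CPM (SD, 5 APP/PS1 mice) (0.68, SE 0.10, adjusted p = 0.00344 with edgeR). With CP2 it was at 103 ± 13.99 CPM (0.49 against NTG, SE 0.092, adjusted p = 0.0101). Cpd, a carboxypeptidase, was at 148 ± 7.39 CPM with CP2 against 132 ± 4.23 CPM in NTG mice (0.18, SE 0.048, adjusted p = 0.0479). The median of the list was -0.081 between APP/PS1 and NTG mice, where 17 of 23 genes had lower values. An unadjusted p under 0.05 was reached by 5 of 23 with lower and 2 of 23 with higher values, against 8.05% and 10.6% of all genes.

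Of 12 peptidases and binding proteins 1 rose and 0 fell between APP/PS1 and NTG mice, against 4.34% and 1.34% of all genes. From NTG to CP2-treated APP/PS1 mice also 1 rose and 0 fell, where 6.02% of all genes were called in either direction. In both cases the gene was Nln, the neurolysin that cleaves neurotensin. It rose from 28.4 ± 0.884 CPM (SD, 4 NTG mice) to 33.2 ± 0.659 CPM (SD, 5 APP/PS1 mice) (0.23, SE 0.044, adjusted p = 0.0112 with edgeR) and was at 32.3 ± 1.07 CPM with CP2 (0.20 against NTG, SE 0.043, adjusted p = 0.0204).

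**Figure D5:**
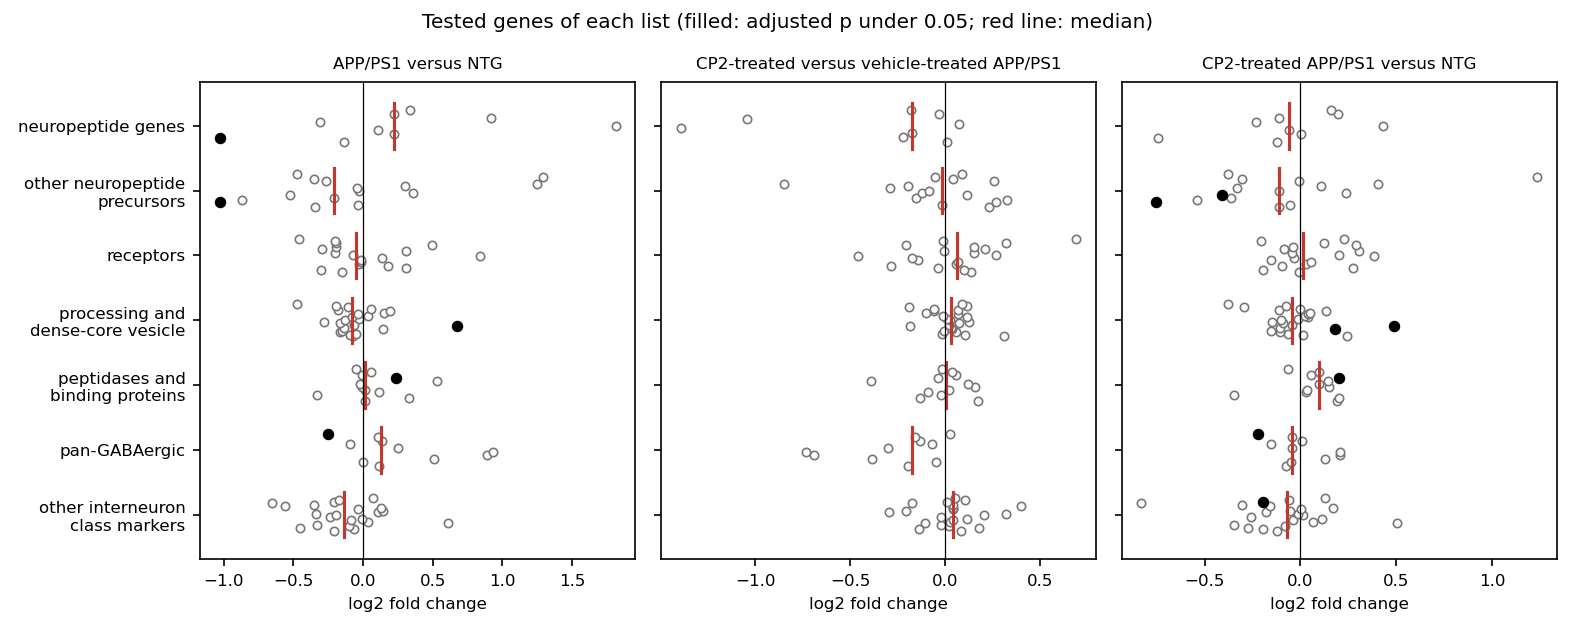
Log2 fold change of every tested gene in 7 lists and 3 comparisons; filled points have an adjusted p under 0.05 and red lines are medians. Cort and Apln are the filled points near -1.0 in APP/PS1 against NTG mice, and the middle panel has 0 filled points.

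Genes of interneurons other than the peptides were compared in the same way. The summed level of 10 pan-GABAergic genes was 1274 to 1342 CPM in NTG mice and 1713 CPM in APP/PS1 mouse 16. In the other 4 APP/PS1 mice it was 1072 to 1186 CPM, all of these 4 below the NTG range. In CP2-treated APP/PS1 mice the sum was 1116 to 1255 CPM, also below the NTG range. Gene by gene, 7 of the 10 were higher and 3 lower in APP/PS1 against NTG mice (median log2 fold change 0.13, mouse 16 included). In CP2-treated APP/PS1 against NTG mice 4 were higher and 6 lower (median -0.043). An unadjusted p under 0.05 was reached by 1 and by 2 of the 10, all lower, against 8.05% and 8.59% of all genes. The sum of Gad1, Gad2 and Slc32a1 was 779 CPM in CP2-treated mouse 23, against 736 to 759 CPM in NTG mice. Of 22 tested markers of interneuron classes 0 passed between APP/PS1 and NTG mice with edgeR and 6 had an unadjusted p under 0.05, 5 of them lower (median -0.14), against 18.7% of all genes and 8.05% lower. Reln, a secreted protein of interneurons and Cajal-Retzius cells, fell from NTG to CP2-treated APP/PS1 mice, from 142 ± 6.49 to 123 ± 6.06 CPM (-0.19, SE 0.050, adjusted p = 0.0447). In this comparison 1 of the 22 class markers fell and 0 rose at an adjusted p under 0.05, against 6.02% of all genes in either direction. An unadjusted p under 0.05 was reached by 4 with lower and 1 with higher values, against 20.2% of all genes and 8.59% lower. Of 12 pan-neuronal genes 0 passed in any comparison, and 2, 0 and 2 had an unadjusted p under 0.05, against 18.7%, 6.55% and 20.2% of all genes.

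Genes whose pattern over mice was most like that of each gene were ranked by Pearson's r of log2 CPM with group means removed, over 14 mice. Npy was most like Synpr, a synaptic vesicle gene (r = 0.96, Spearman 0.96, r = 0.94 without the 2 mice farthest from the median of Npy). Sst was most like Rcn1 (r = 0.93, Spearman 0.93, r = 0.93 without 2 mice), and Cort was most like Ctnnb1 (r = 0.91, Spearman 0.90, r = 0.92 without 2 mice). Penk was most like the overlapping A830012C17Rik (r = 0.997), then Kcna5 and Ppp1r1b (r = 0.98 for each), and without mice 16 and 23 these 3 were at 0.99, 0.86 and 0.90. Tac1 was most like Gpr6, Slc35d3 and Kcna5 (r = 0.98 for each), and without mice 16 and 20 these 3 were at 0.91, 0.88 and 0.96. These correlations share tissue composition and depth and were selected as the highest of 16520 genes.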

How the data were processed

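RNA was sequenced from a brain cross-section of each mouse. The authors prepared TruSeq RNA v2 libraries, aligned paired reads with TopHat2 to mm10, ran featureCounts with a setting that assigns a read to all genes it overlaps, and deposited raw read counts per gene without normalization. RPKM values per gene were also computed and deposited by the authors, and served here only to compare levels between genes. The strand setting and the versions of TopHat2 and featureCounts are not given in the sources used here, and the library kit does not mark strand. Where groups hold separate mice, n counts mice.

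Each pair of groups was fitted alone with edgeR 4.0.16 in R 4.3.3 (TMM factors, glmQLFit and glmQLFTest, Benjamini-Hochberg adjustment, threshold 0.05), on genes above 1 CPM in every mouse of at least 1 group, the filter of the study's script, which tests with DESeq2. Standard errors are the log2 fold change divided by the square root of the F statistic. The approximate 95% intervals multiply these by the normal quantile, which makes them too narrow for groups of this size. Of 26 pairs of mice within groups none was a duplicate (lowest chi-square per degree of freedom 9.87). Alternatives were RLE and upper-quartile factors, DESeq2 1.42.0, limma-voom (limma 3.58.1) with sample weights, no filter, at least 10 counts in every mouse, all 3 groups in 1 fit, and each mouse left out. Fits without the 4 mice of highest Hcrt were added after seeing the data. The procedure was tested on simulated data.

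The members and gene lists were chosen with earlier results of these data known. Named were all 10 genes, the genes of 6 related lists with an adjusted p under 0.05 in any comparison or otherwise the smallest p, genes overlapping a member, and genes most alike in pattern. A gene that this rule names is not reported here. Hcrt, Avp, Oxt and Adora2a were named after their values were seen. Marker lists of brain regions and cell types are given by their summed CPM.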

Additional observations from a re-analysis of the deposited data

Results flagged for a closer look

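In 57 sets of values (genes and summed lists within a group of 4 or 5 mice), the highest or lowest mouse was compared with its nearest neighbour by Dixon's criterion, which chance alone meets in about 5% of sets. Single mice stood apart in 6. In APP/PS1 mouse 16 these were Penk (462 CPM, the rest 34.1 to 51.8), Tac1 (109 CPM, the rest 10.9 to 17.01), summed striatal genes (3311 CPM, the rest 434 to 503), summed pan-GABAergic genes (1713 CPM, the rest 1072 to 1186) and, as the lowest, summed dentate gyrus genes (53.2 CPM, the rest 110 to 133). In CP2-treated mouse 23 it was the sum of hypothalamic genes (60.6 CPM, the rest 15.9 to 27.8).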

How the results depend on the processing

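No paired analysis was possible because the groups share no replicate numbers. Of 474 alternative log2 fold changes, 424 kept their direction and their side of the threshold, 7 gained and 2 lost a call, and 41 changed sign, all of the last in values that were not called. The cause was not tested. DESeq2 gave no adjusted p for Penk and Tac1 in the first 2 comparisons.

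Between APP/PS1 and NTG mice 932 genes were called. DESeq2 called 1667, limma-voom 1563, the fit without the 4 mice of highest Hcrt 362, and fits without 1 mouse 578 (NTG mouse 9 left out) to 1474 (mouse 16 left out). Of the 10 neuropeptide genes 1 was called, 2 with limma-voom, without a filter or with at least 10 counts, 0 (without NTG mouse 10) to 2 (without mouse 16) without 1 mouse, 0 without the 4 mice and 2 without these and mouse 16. The log2 fold change of Npy was -0.11 with limma-voom, -0.035 without the 4 mice, -0.29 without these and mouse 16, and -0.13 to 0.21 without 1 mouse. Tac1 was -0.12 with limma-voom, -0.19 without the 4 mice and mouse 16, and -0.31 to 1.14 without 1 mouse. Crh was -0.0032 with limma-voom, -0.25 without the 4 mice and mouse 16, and -0.065 to 0.38 without 1 mouse.

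With CP2 in APP/PS1 mice 1 gene was called, 23 with DESeq2, 0 in a fit of all 3 groups, 0 without the 4 mice, also with mouse 16 left out, and 0 to 1 without 1 mouse (0 without mouse 22). Without the 4 mice Sst was -0.079 and Cck -0.0070. Without these and mouse 16 Sst was -0.00072, Crh 0.060 and Cort -0.030. Npy was 0.0050 with limma-voom. Without 1 mouse the ranges were -0.26 to 0.066 for Npy, -0.058 to 0.073 for Cck, -1.68 to 0.19 for Penk, -1.27 to 0.20 for Tac1, -0.19 to 0.077 for Tac2 and -0.33 to 0.066 for Crh.

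In APP/PS1 mice given CP2, set against NTG mice, 989 genes were called, 1670 with DESeq2, 354 without the 4 mice, and 572 to 1123 without 1 mouse (572 without NTG mouse 9, 623 without NTG mouse 8, 616 without mouse 21). Of the neuropeptide genes 0 were called, 1 with DESeq2, 1 with limma-voom, 1 without the 4 mice and 0 to 1 without 1 mouse. Vip was -0.096 without the 4 mice. Crh was -0.0020 with RLE factors, -0.0014 with DESeq2, -0.0077 with limma-voom, -0.0034 without a filter, -0.20 without the 4 mice and -0.090 to 0.16 without 1 mouse. Npy was -0.17 to 0.040 without 1 mouse.

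Groups of 4 and 5 mice and the low counts of Cort limit the precision.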
